A study of Homo sapiens with 3 samples.

Results

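A set of 8 inflammatory genes was examined in Hep3B, a cell line of human liver cancer origin. The genes were IL32, UBD, LCN2, BIRC3, ICAM1, TNFAIP2, TRAF1 and CD83, taken by symbol, and all 8 were found among the 19862 genes of the expression table. IL32 and UBD were selected on their measured FPKM, being higher in both treated libraries than in the control, so their differences from the control are given as a description and support nothing. The other 6 were added as companions, with earlier results of the same data known.

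RNA sequencing was done on 1 library from cells transfected with the pcDNA3.1 plasmid carrying HKR3, 1 library labelled siTERT, a name that stands for small interfering RNA directed at TERT, and 1 control library. The gene HKR3 is now called ZBTB48 and encodes a telomere-binding zinc finger protein, and TERT is the catalytic subunit of telomerase. All cells were Hep3B in the same serum-containing medium and received the Fugene transfection reagent. The control is titled NT and Empty and its treatment label names the reagent alone, and the sources used here do not say which nucleic acid, if any, these cells received. They do not say when after transfection RNA was taken, and the plasmid differs from the small interfering RNA in kind as well as in content, which cannot be told apart here. Each group is 1 library, so there is no replicate check of any difference and no p-value is printed.

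The 8 genes are known as targets of NF-kB, a family of transcription factors that is held in the cytoplasm by inhibitor proteins and enters the nucleus after receptors for tumour necrosis factor, interleukin-1 or bacterial products are engaged. In hepatocytes and liver tumour cells this pathway switches on chemokines, adhesion molecules, survival factors and its own inhibitors. IL32 encodes a proinflammatory cytokine and LCN2 encodes lipocalin-2, a secreted protein that binds bacterial siderophores. UBD encodes FAT10, a ubiquitin-like protein that marks other proteins for the proteasome and is inducible by tumour necrosis factor and interferon gamma. ICAM1 encodes an adhesion receptor for leukocyte integrins, and TNFAIP2 is a gene named for its induction by tumour necrosis factor. BIRC3, the ubiquitin ligase cIAP2, and TRAF1, an adaptor, belong to receptor complexes of the tumour necrosis factor family, and CD83 is a surface protein used as a marker of mature dendritic cells.

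Levels are given in FPKM, a fragment count divided by transcript length and library size, as the authors deposited them. ZBTB48 was at 2842 FPKM in the HKR3 library, 4.89 FPKM in the siTERT-labelled library and 4.91 FPKM in the control. TERT was at 4.25, 5.37 and 4.69 FPKM in the same order, so TERT was not lower in the siTERT-labelled library, and every direction given for that library belongs to its label. The depth estimated from the low values was 1.16e+07, 1.15e+07 and 1.04e+07 fragments. All 7 hepatocyte markers were above 1 FPKM in each library and summed to 7341, 10448 and 10541 FPKM. Of 10 leukocyte markers, PTPRC, CD3E, MS4A1, NKG7 and LAPTM5 were listed at 0 in all libraries, and 3 were above 1 FPKM in each. These were LYZ at 210, 392 and 392 FPKM, CD68 at 29.4, 44.1 and 32.7 FPKM, and CD14 at 3.13, 4.82 and 6.20 FPKM. The list summed to 243, 441 and 432 FPKM. Of 4 dendritic cell markers, ITGAX, CD1C and CLEC9A were listed at 0 in all libraries and LAMP3 was at 1.16, 1.797 and 2.35 FPKM. The 3 endothelial markers in the table were listed at 0 throughout. The 4 stromal markers summed to at most 0.220 FPKM and the 2 erythroid markers to at most 0.315 FPKM in any library. The table is on the hg19 build, and an exact 0 in it is not read as absence.

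The promoters of the 8 genes were examined for 3 motifs, and 4 of them are shown because they carry matches to the NF-kB motif, called kB, in genes with very different levels in these cells. Sequences are from RefSeq on GRCh38.p14 and run from 250 bases before to 50 bases after an annotated start site, and all 8 genes had an entry, with 12 promoters in all. Capitals mark matches to the kB consensus on either strand.
IL32 (chr16:3065153-3065452, plus strand): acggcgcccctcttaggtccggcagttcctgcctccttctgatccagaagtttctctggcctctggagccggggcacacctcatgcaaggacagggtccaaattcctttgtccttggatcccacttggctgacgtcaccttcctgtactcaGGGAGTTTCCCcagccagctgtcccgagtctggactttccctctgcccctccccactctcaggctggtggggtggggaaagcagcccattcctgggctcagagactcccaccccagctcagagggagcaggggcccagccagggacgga
UBD (chr6:29559683-29559982, minus strand): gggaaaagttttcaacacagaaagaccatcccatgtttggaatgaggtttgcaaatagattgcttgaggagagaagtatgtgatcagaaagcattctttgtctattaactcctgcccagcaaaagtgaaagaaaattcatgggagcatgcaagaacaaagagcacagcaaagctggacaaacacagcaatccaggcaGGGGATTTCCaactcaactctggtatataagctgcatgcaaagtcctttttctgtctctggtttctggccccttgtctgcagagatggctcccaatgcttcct
BIRC3 (chr11:102317234-102317533, plus strand): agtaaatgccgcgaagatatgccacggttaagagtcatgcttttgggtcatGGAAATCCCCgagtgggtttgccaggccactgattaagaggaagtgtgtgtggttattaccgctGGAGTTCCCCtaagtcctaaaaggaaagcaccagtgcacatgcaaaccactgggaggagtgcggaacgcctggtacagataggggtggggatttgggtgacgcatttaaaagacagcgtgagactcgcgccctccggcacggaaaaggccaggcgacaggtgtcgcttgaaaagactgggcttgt
CD83 (chr6:14117522-14117821, plus strand): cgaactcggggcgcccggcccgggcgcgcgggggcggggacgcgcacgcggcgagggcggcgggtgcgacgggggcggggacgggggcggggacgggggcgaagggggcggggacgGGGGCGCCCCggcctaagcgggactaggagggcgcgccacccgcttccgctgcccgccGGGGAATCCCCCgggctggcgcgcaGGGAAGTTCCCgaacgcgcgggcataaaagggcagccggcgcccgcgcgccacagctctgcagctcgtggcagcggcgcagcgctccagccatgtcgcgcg

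In the IL32 promoter a pair of overlapping matches began 99 and 98 bases before the start site and spanned GGGAGTTTCCC. In the UBD promoter the match GGGGATTTCC began 53 bases before the start site. BIRC3 held the same 10 letters on the other strand, as GGAAATCCCC, 199 bases before the start site, and a second match, GGAGTTCCCC, at 135 bases. CD83 held 6 matching windows, overlapping into 3 separate stretches, within a promoter of 81.3% G and C. LCN2 had 1 kB match, GGAATGTCCC, 175 bases before the start site. In all, 5 of the 8 genes and 5 of their 12 promoters held a kB match. The shares were 11.3% of all 35116 promoters in the table and 13.3% of all 27305 genes with a promoter. Because the 8 genes are known as targets of NF-kB, nothing is read from this count. The promoters it is set beside were not matched for G and C. The promoters of ICAM1, TNFAIP2 and TRAF1, the other promoter of IL32 and that of CD83 held none, which says only that these letters are not in these windows.

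A match to AP-1, spelled TGANTCA, was found in LCN2 alone, as TGAATCA at 52 bases before the start site, against 7.71% of all promoters. A match to GAS, the interferon-activated site searched as TTCNNNGAA, was found in ICAM1 alone, as TTCCGGGAA at 75 bases, against 7.66% of all promoters. No kB, AP-1 or GAS match overlapped a match of another motif in these promoters. The members with a kB match included IL32 and UBD, and also CD83, which was close to undetected in every library. A match is a description of letters and no evidence of binding in these cells.

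**Figure D1:**
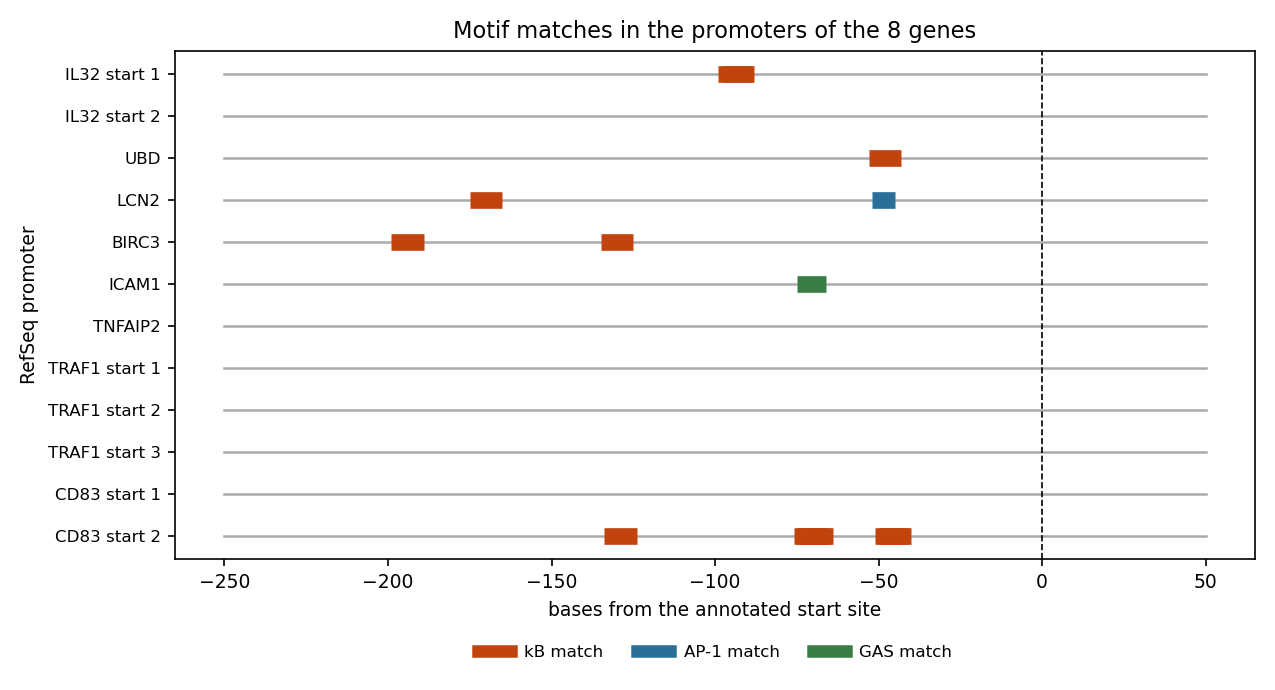
Matches to 3 motifs, on either strand, in the 12 RefSeq promoters of the 8 genes, by distance in bases from the annotated start site (dashed line). Grey lines are the promoters searched, and 5 of them carry a kB match, all upstream of the start site.

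Among the 8 genes, ICAM1 had the highest level in every library and lay within the top 6.52%, 7.33% and 11.04% of all genes in the HKR3 library, the siTERT-labelled library and the control. IL32 and UBD came next in each library, with IL32 above UBD in the HKR3 library and UBD above IL32 in the siTERT-labelled library and the control. TNFAIP2 and LCN2 were expressed at a few FPKM, TNFAIP2 above LCN2 in both treated libraries and below it in the control. BIRC3 followed, and TRAF1 and CD83 were lowest, with fewer than 10 estimated fragments each in every library. In the order of the 8 levels the neighbours IL32 and UBD in the control, at 6.16 and 6.52 FPKM, lay close together, and no spread between replicates exists to part them.

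**Figure D2:**
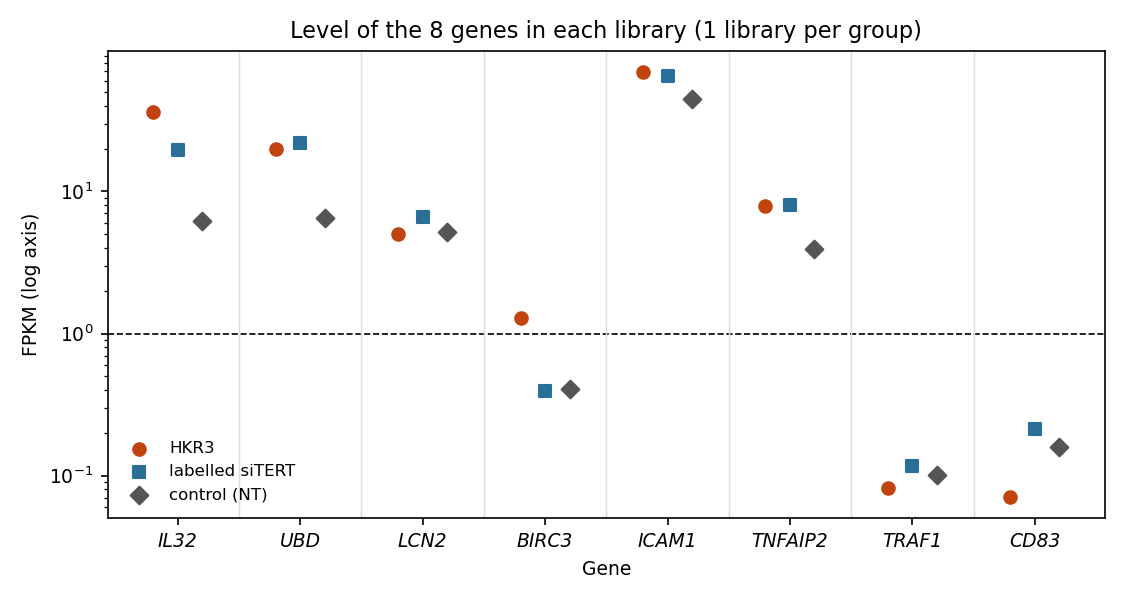
FPKM (log axis) of the 8 genes, 1 point per library: circles are the HKR3 library, squares the siTERT-labelled library and diamonds the control. The dashed line is at 1 FPKM, and TRAF1 and CD83 lie below it in all 3 libraries.

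Of the secreted proteins, IL32 was the member with the widest range. Its level was 36.4 FPKM in the HKR3 library, 19.6 FPKM in the siTERT-labelled library and 6.16 FPKM in the control, the highest, middle and lowest of widely spaced levels. In RNA from a whole culture, fewer cells that express a gene and less RNA per cell cannot be told apart. The ratio of the HKR3 library to the control was 5.92, with a 95% counting interval from 3.95 to 8.98, and that of the siTERT-labelled library to the control was 3.19, from 2.08 to 4.97. These intervals are exact binomial limits on estimated fragments and cover counting error only, not the variation between cultures. Nor do they allow for the choice of IL32 as a gene higher than the control in both treated libraries. They used 447 bases, the shortest of 27 annotated coding transcripts of IL32, which gives the widest interval. The gene was the 47th highest of 10974 genes by difference in the HKR3 library and the 10th highest in the siTERT-labelled library, where TERT was not lower. The direct ratio of the HKR3 library to the siTERT-labelled library, which does not use the control, was 1.86, from 1.44 to 2.38.

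LCN2 was at 5.02 FPKM in the HKR3 library, 6.57 FPKM in the siTERT-labelled library and 5.15 FPKM in the control. Its ratios to the control were 0.974, with a counting interval from 0.597 to 1.61, and 1.28, from 0.810 to 2.05, so no difference was detectable at this depth. The sign of its difference in the HKR3 library turned with scaling, from a log2 difference of -0.03 as deposited to 0.10 with libraries scaled to an equal sum. Against the siTERT-labelled library the ratio in the HKR3 library was 0.763, from 0.482 to 1.19.

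UBD, the ubiquitin-like modifier, was at 19.99 FPKM in the HKR3 library, 21.8 FPKM in the siTERT-labelled library and 6.52 FPKM in the control. Both treated libraries were high and close to each other, unlike IL32. Its ratio to the control was 3.07 in the HKR3 library, with a counting interval from 2.35 to 4.02, and 3.34 in the siTERT-labelled library, from 2.57 to 4.37. The direct ratio of the HKR3 library to the siTERT-labelled library was 0.918, from 0.771 to 1.09. By difference from the control UBD was the 198th highest of 10974 genes in the HKR3 library and the 8th highest in the siTERT-labelled library, although TERT was not lower there.

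UBD overlaps other genes in the annotation, which bears on how its reads could be assigned. In GENCODE v29, 65.5% of its sequence in units of 31 bases also lies in transcripts of GABBR1, a GABA receptor subunit gene on the same strand. GABBR1 was at most 0.0237 FPKM in any library. The sum of the pair had log2 differences from the control of 1.48 in the HKR3 library and 1.59 in the siTERT-labelled library. For UBD alone they were 1.48 and 1.60. With GABBR1 listed this low the sum had to stay close to UBD, so it does not show which gene the shared reads came from. On the opposite strand, exons of OR2I1P cover 76.9% of the exon bases of UBD, and the sources used here do not say whether counting used strand. OR2I1P has no level among the deposited values, so no such sum could be made for it. ICAM1 likewise has 22.0% of its exon bases under an antisense gene. Of the other 7 members, none shared more than 2.58% of its sequence with another gene of the table.

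ICAM1, the adhesion receptor, was at 69.3 FPKM in the HKR3 library, 65.2 FPKM in the siTERT-labelled library and 45.0 FPKM in the control. Its ratio to the control was 1.54 in the HKR3 library, from 1.39 to 1.70, and 1.45 in the siTERT-labelled library, from 1.31 to 1.61. These intervals are the narrowest of the 8 genes, with 1042, 969 and 608 estimated fragments, and both lie below 2-fold. Between the treated libraries the ratio was 1.06, from 0.972 to 1.16.

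TNFAIP2 was at 7.96 FPKM in the HKR3 library, 8.01 FPKM in the siTERT-labelled library and 3.93 FPKM in the control. The treated libraries were nearly equal, with a direct ratio of 0.994 and a counting interval from 0.862 to 1.15. Against the control the ratios were 2.02, from 1.69 to 2.44, and 2.04, from 1.70 to 2.45. On the scale of log2(FPKM + 1), which understates the change of weakly expressed genes, its differences were 0.86 and 0.87, short of the 1 that stands for 2-fold. With libraries scaled to an equal sum, the difference in the HKR3 library was 0.99, still short of it. In TPM, where levels are also larger against the pseudocount, it was 1.06.

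BIRC3, the ubiquitin ligase of tumour necrosis factor receptor complexes, was at 1.29 FPKM in the HKR3 library, 0.392 FPKM in the siTERT-labelled library and 0.408 FPKM in the control. It was thus high in the HKR3 library and level with the control in the siTERT-labelled library, a pattern unlike that of IL32, UBD, ICAM1 and TNFAIP2. Its ratio of the HKR3 library to the control was 3.16, from 1.84 to 5.64, and that of the HKR3 library to the siTERT-labelled library was 3.29, from 1.93 to 5.79. The ratio of the siTERT-labelled library to the control was 0.962, from 0.477 to 1.94. These rest on 63, 19 and 18 estimated fragments, and the mean of 0.697 FPKM fell under the 1 FPKM required for the counts of genes. The log2 difference in the HKR3 library was 0.70, and it ranged from 0.22 with a pseudocount of 5 to 1.45 with one of 0.1.

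TRAF1, the adaptor that pairs with TRAF2, was at 0.0823 FPKM in the HKR3 library, 0.116 FPKM in the siTERT-labelled library and 0.1004 FPKM in the control, or 4, 5 and 4 estimated fragments. CD83 was at 0.0712, 0.212 and 0.160 FPKM, or 2, 6 and 4 estimated fragments. For TRAF1 the counting interval of the ratio of the HKR3 library to the control ran from 0.167 to 4.82, and for CD83 from 0.0406 to 3.13. A change of several-fold in either direction would therefore not have been detectable for these genes.

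**Figure D3:**
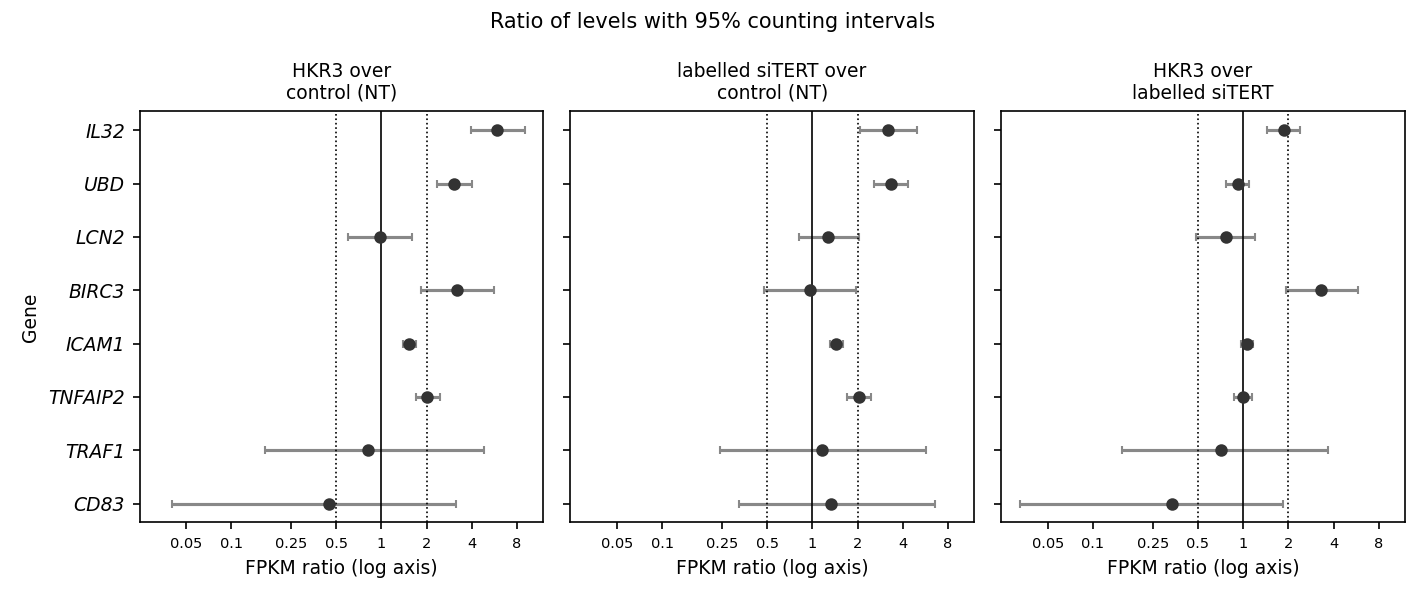
Ratio of FPKM (log axis) of the 8 genes in 3 comparisons, with 95% exact binomial intervals on estimated fragments that cover counting error only; solid lines mark 1 and dotted lines 2-fold. IL32 lies to the right of 1 in all 3 comparisons, while BIRC3 does so only in the 2 that involve the HKR3 library. IL32 and UBD were picked for being higher than the control in both treated libraries, which their intervals do not allow for.

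Across the 8 genes, 5 passed the filter of a mean of at least 1 FPKM, and BIRC3, TRAF1 and CD83 did not. By the size rule of 2-fold on log2(FPKM + 1), 2 of these 5, IL32 and UBD, were higher in the HKR3 library than in the control and the other 3 lay within 2-fold, with 0 lower. Of all 10974 genes tested, 5.52% passed this size upward and 2.52% downward, 8.05% in all. These were 606 and 277 genes, or 841 and 165 once the FPKM of each library were brought to an equal sum, which moved the median of all genes by 0.14 on the log2 scale. In TPM they were 991 and 208. The same 2 of 5 were at least 2-fold higher in the siTERT-labelled library than in the control, where 0.282% of all genes were higher and 0.200% lower, 0.483% in all. Since IL32 and UBD were picked for these differences, nothing is read from those counts. In the HKR3 library against the siTERT-labelled library, 0 of 5 were past 2-fold, and 4.11% of all genes were higher and 1.38% lower, 5.49% in all. Both comparisons with the control share that library and with it any error of its own.

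Ligands that act upstream of NF-kB were mostly under the filter. Of 17 listed, 14 were under the filter, among them TNF, LTA and IL1B, and CD40LG, CD70, IL1A and TNFSF14 were listed at 0 in all libraries. None of the 3 tested, TNFSF9, TNFSF10 and IL18, was past 2-fold against the control. TNFSF10, the death ligand TRAIL, was at 3.002 FPKM in the HKR3 library, 7.51 FPKM in the siTERT-labelled library and 5.78 FPKM in the control.

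Of 25 receptors, 14 were tested, and 3 were at least 2-fold higher and 0 lower in the HKR3 library. Over all genes the shares were 5.52% higher and 2.52% lower, and the lists were chosen with earlier results known. TNFRSF12A, the receptor of TWEAK, was at 199.7 FPKM in the HKR3 library, 72.0 FPKM in the siTERT-labelled library and 41.5 FPKM in the control. TNFRSF11B, which encodes the decoy receptor osteoprotegerin, was at 39.3, 19.9 and 9.56 FPKM in the same order, and TNFRSF21, a death receptor, at 56.9, 24.2 and 20.4 FPKM. TNFRSF1A, the main receptor of tumour necrosis factor, was 2-fold lower in the HKR3 library than in the siTERT-labelled library, at 38.5 and 78.8 FPKM, with 59.0 FPKM in the control, although this log2 difference of -1.02 was -0.90 with libraries scaled to an equal sum. In the siTERT-labelled library 0 of the 14 were past 2-fold, and TNFRSF11B, with a log2 difference of 0.98, lay just short of it and was at 1.02 with libraries scaled to an equal sum. With a pseudocount of 0.1 the count was 2. The median of the receptors' log2 differences was 0.36 for the HKR3 library and 0.29 for the siTERT-labelled library over these 14, and 0.0029 and 0.07 over all 25 with no filter. Over all genes these medians were -0.02 and -0.01, and both turned positive, to 0.12 and 0.03, with libraries scaled to an equal sum.

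Genes for receptor complex proteins and for relatives of TRAF1 and BIRC3 lay mostly close to the control. Of 23 tested, 1 was at least 2-fold higher in the HKR3 library, IRAK2, a kinase-like adaptor of interleukin-1 and Toll-like receptors, at 29.3 FPKM in the HKR3 library, 11.5 FPKM in the siTERT-labelled library and 7.995 FPKM in the control. The count of 1 of 23 stood beside 5.52% of all genes, and was 2 with libraries scaled to an equal sum. The median log2 difference was 0.13 in both treated libraries, or 0.28 and 0.16 with that scaling. TRAF2, with which TRAF1 pairs, was at 19.5, 17.2 and 15.8 FPKM, and BIRC2, the close relative of BIRC3, at 15.6, 11.6 and 10.4 FPKM. Both were thus expressed well above TRAF1 and BIRC3, per length, in every library.

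Among subunits, kinases and inhibitors of NF-kB, 7 of 24 tested genes were at least 2-fold higher in the HKR3 library. Only 1, NFKBID, was lower, though not with libraries scaled to an equal sum. It was at 0.806 FPKM in the HKR3 library, 2.71 FPKM in the siTERT-labelled library and 2.82 FPKM in the control. Its log2 difference from the control in the HKR3 library was -1.08 as deposited. Of all genes, 5.52% were higher and 2.52% lower. TNFAIP3, the deubiquitinase A20 that shuts off the pathway, was at 24.2 FPKM in the HKR3 library, 3.82 FPKM in the siTERT-labelled library and 2.15 FPKM in the control. RELB, a subunit of the noncanonical pathway, was at 30.7, 7.78 and 3.82 FPKM, and MAP3K14, the kinase NIK of that pathway, at 5.17, 1.62 and 1.08 FPKM. BCL3, a nuclear member of the inhibitor family, was at 63.3, 33.2 and 23.6 FPKM. RELA, the canonical subunit, was at 32.7, 28.2 and 25.7 FPKM. In the siTERT-labelled library 0 of 24 were past 2-fold, and in the HKR3 library the median log2 difference was 0.71, against 0.21 in the siTERT-labelled library. With a pseudocount of 5 the count of 7 was 3 and the median of 0.71 was 0.36. The count was 8 with libraries scaled to an equal sum and 11 in TPM.

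Of 41 other inflammatory targets of NF-kB, 24 were tested. In the HKR3 library 12 were at least 2-fold higher and 0 lower, against 5.52% and 2.52% of all genes. The median log2 difference was 0.93 over the 24 and 0.21 over all 40 in the table with no filter. In the siTERT-labelled library 2 were higher, CXCL8 and CXCL1, and 0 lower, against 0.282% and 0.200% of all genes. The median there was 0.47 over the 24 and 0.07 over all 40. With a pseudocount of 5, 1 of these 2 was left. The chemokine gene CXCL8 was at 62.4 FPKM in the HKR3 library, 10.3 FPKM in the siTERT-labelled library and 1.96 FPKM in the control. CXCL2 was at 28.8, 3.06 and 1.501 FPKM and CXCL3, another neutrophil chemokine, at 19.2, 3.90 and 2.27 FPKM. GADD45B, a stress-response gene, was at 58.4, 10.96 and 10.9 FPKM and so was high in the HKR3 library alone. The adhesion receptor gene VCAM1 was at most 0.0271 FPKM, and SELE was listed at 0.

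**Figure D4:**
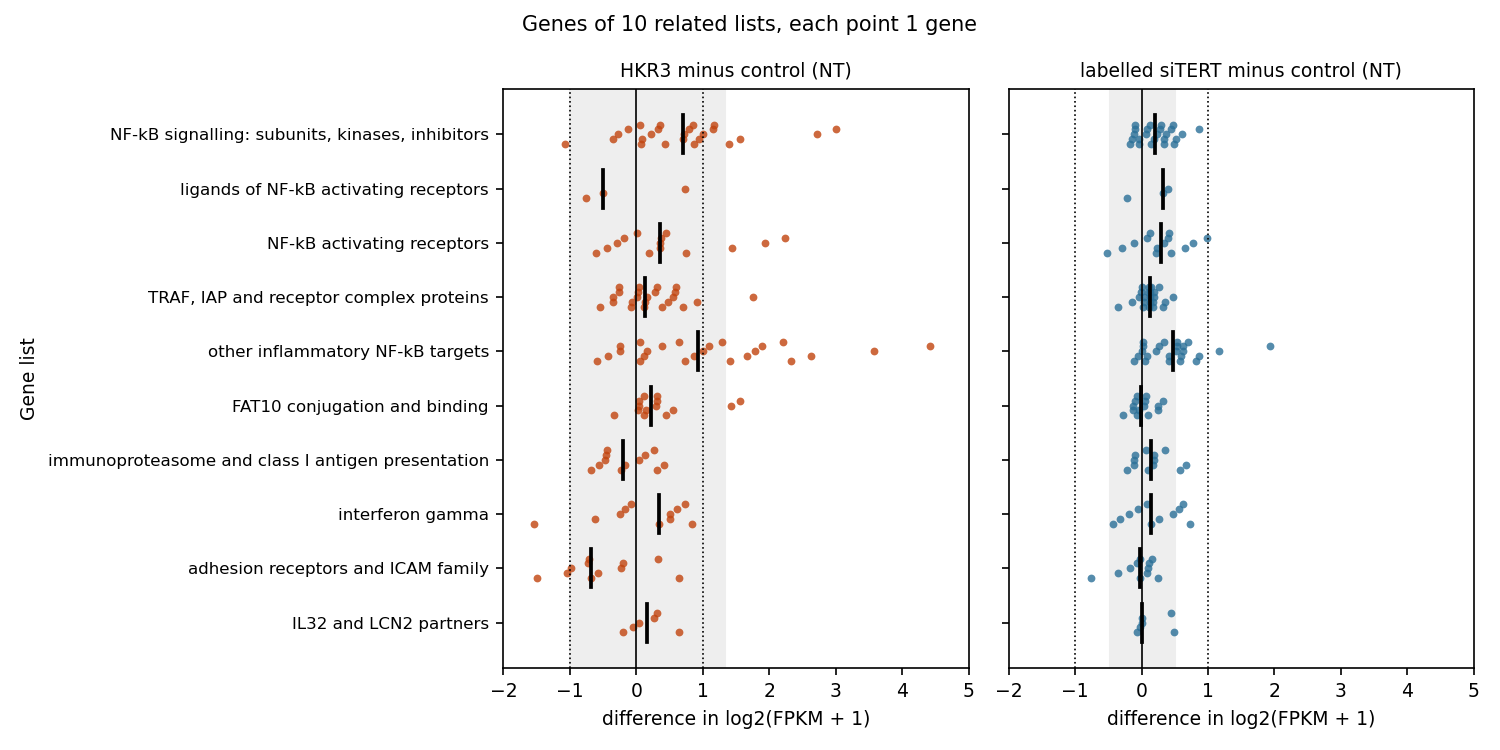
Difference in log2(FPKM + 1) from the control of the tested genes of 10 related lists, in the HKR3 library (left) and the siTERT-labelled library (right). Points are genes, black bars the list medians, dotted lines 2-fold, and the grey band the central 95% of all 10974 genes; 12 points of the other NF-kB targets lie past 2-fold at left and 2 at right.

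Genes that work with FAT10, the product of UBD, were examined as a list of 14, all tested. UBA6, the enzyme that activates FAT10, was at 7.504 FPKM in the HKR3 library, 7.18 FPKM in the siTERT-labelled library and 5.93 FPKM in the control. UBE2Z, the enzyme that conjugates it, was at 77.1, 57.8 and 61.9 FPKM, and NUB1, which links FAT10 to the proteasome, at 21.4, 19.98 and 20.9 FPKM. These 3 partners thus lay close to the control while UBD was about 3 times higher. In the HKR3 library 2 of 14 were at least 2-fold higher, against 5.52% of all genes. Among these 2 was SQSTM1, the autophagy receptor p62, at 1037, 482 and 385 FPKM. In the siTERT-labelled library 0 of 14 were past 2-fold, with 7 above and 7 below the control, and their median, near 0, changed sign with scaling.

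Immunoproteasome and antigen presentation genes, which are often induced together with UBD by interferon gamma, were not past 2-fold in any of the 12 tested. Their median log2 difference was -0.20 in the HKR3 library, or -0.05 with libraries scaled to an equal sum, and 0.13 in the siTERT-labelled library. TAPBP, tapasin, was the farthest from the control, at 9.29 FPKM in the HKR3 library, 16.3 FPKM in the siTERT-labelled library and 15.4 FPKM in the control. PSMB8 and PSMB9, catalytic subunits of the immunoproteasome, were under the filter, and PSMB9 was at 0.128, 0.914 and 0.573 FPKM. PSMB10, another such subunit, was tested and was at 17.4, 26.4 and 20.5 FPKM. Of 11 tested genes of interferon gamma signalling, 0 were at least 2-fold higher and 1 was lower in the HKR3 library. Of all genes, 5.52% were higher and 2.52% lower. The 1 lower gene was SOCS1, a feedback inhibitor, at 4.80, 12.6 and 15.9 FPKM. The median log2 difference of the 11, 0.35 in the HKR3 library, was -0.08 over genes averaging 5 FPKM or more and 0.06 over all 18 with no filter. IRF1, an interferon-induced transcription factor, was at 3.69, 2.63 and 1.62 FPKM.

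The adhesion receptors and relatives of ICAM1 were mostly below the control in the HKR3 library, where ICAM1 was above it. Of 11 adhesion genes tested, 0 were at least 2-fold higher and 2 were lower in the HKR3 library, against 5.52% and 2.52% of all genes. Of the 11, 9 were below the control, with a median log2 difference of -0.68. The median was -0.23 over genes averaging 5 FPKM or more, -0.20 over all 17 with no filter and -0.38 with a pseudocount of 5. ICAM4 was at 1.87 FPKM in the HKR3 library, 3.80 FPKM in the siTERT-labelled library and 7.11 FPKM in the control, and ICAM2 at 1.13, 3.70 and 3.38 FPKM. The count of 2 was 1 with libraries scaled to an equal sum, 0 with a pseudocount of 5 and 0 over genes averaging 5 FPKM or more. ICAM2, with a log2 difference of -1.04 as deposited, was at -0.94 with that equal sum and at -1.10 in TPM. The integrin gene ITGB2, which encodes the beta chain of the leukocyte ligand of ICAM1, was listed at 0 in all libraries. Of a list of partners of IL32 and LCN2 together with iron and heme genes, 6 of 10 were tested and 0 were past 2-fold. HMOX1, the heme oxygenase gene, was the farthest, at 107 FPKM in the HKR3 library, 68.8 FPKM in the siTERT-labelled library and 68.3 FPKM in the control.

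The genes whose differences from the control were most like those of IL32 were found by the distance between the pairs of log2 differences, over 3 libraries and 10974 genes. Nearest was AKR1C1, an aldo-keto reductase, at 55.2 FPKM in the HKR3 library, 29.1 FPKM in the siTERT-labelled library and 11.3 FPKM in the control, with a distance of 0.30. It shares 35.1% of its sequence in units of 31 bases with AKR1C2. AKR1B10, another reductase of the family, followed at 0.49, and CDKN2B, the gene of the kinase inhibitor p15, at 0.51, with 34.4, 10.8 and 4.24 FPKM. AKR1B10 shares 23.6% of its sequence with other genes of the table. The other 2 were ENSG00000272772, with 93.8% of its sequence in other genes, and the read-through gene RPS10-NUDT3, with 97.2%, so that their levels are uncertain.

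For UBD the nearest was BCL2L2-PABPN1, a read-through gene with 92.8% of its sequence in other genes, at a distance of 0.22. SPP1, the gene of osteopontin, was at 5.48 FPKM in the HKR3 library, 3.93 FPKM in the siTERT-labelled library and 1.25 FPKM in the control, at a distance of 0.47. SLC2A6, a sugar transporter gene, was at 4.72, 3.90 and 1.24 FPKM, at 0.49. The other 2 were ENSG00000163386 at 0.57 and CXCL1, a neutrophil chemokine gene, at 33.2, 19.6 and 8.24 FPKM and 0.60. For ENSG00000163386 no sequence was available to check for sharing, and CXCL1 shares 13.8% of its sequence with other genes of the table. With 3 libraries many genes can share such a pattern, and the distances are a description only.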

How the data were processed

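The authors deposited 1 table of FPKM per gene for 3 libraries. TRIzol extraction and stranded TruSeq mRNA library preparation are named per the labels' protocols. The genome build hg19 and the tools STAR 2.5.0, Cufflinks and Cuffdiff 2.2.1 are named per the submitters' processing notes. Strand setting, filters and further scaling between libraries: not given in the sources used here. A scaling by mapped fragments would lower all other genes where a few take many fragments. ZBTB48 had an estimated 75617 fragments in the HKR3 library, of 1.16e+07 in all. The sums of FPKM were 535516 in the HKR3 library, 579410 in the siTERT-labelled library and 596536 in the control. Why the sums differ was not tested.

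Of 19869 entries, 19119 matched a symbol. The 10 that shared a symbol were summed and 4 short noncoding RNAs left out. Differences are of log2(FPKM + 1), with a pseudocount of 1, over 10974 genes averaging 1 FPKM or more, and a size of 2-fold stands in for a test.

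Depth was estimated from the FPKM worth of 1 fragment in low genes with 1 GENCODE v29 transcript of at least 1000 bases. It rests on 59 of 78, 72 of 89 and 64 of 78 low genes within 25% of that value, in the order above. If FPKM was scaled further, these are scaled sizes. Fragments of a gene were estimated with its shortest coding transcript.

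The members, lists, rule for named genes and alternatives were chosen with earlier results of these data known. Named were the members, up to 4 genes of each list past 2-fold or else its farthest gene, and the 5 genes nearest to IL32 and to UBD. TRAF2, BIRC2, RELA, UBA6, UBE2Z, NUB1, PSMB8, PSMB9, PSMB10, IRF1, VCAM1, SELE, ITGB2, NFKBID, CXCL1, GABBR1, OR2I1P and the ligands other than TNFSF10 do not come from this rule and were picked with their values known. The calculation and the motif search were tested on simulated data. Python 3.11.15, numpy 2.4.6, pandas 2.3.3, scipy 1.17.1 and matplotlib 3.10.9 were used. Some items of the lists are not reported here.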

Additional observations from a re-analysis of the deposited data

How the results depend on the processing

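A total of 7 alternatives was run on all differences: a pseudocount of 0.1 or 5, no filter or a mean of at least 5 FPKM, and TPM, the same upper quartile or the same sum. TPM also makes levels larger against the pseudocount. The same sum, the mean of the deposited sums, does not, and was chosen after seeing the data. IL32 and UBD stayed at least 2-fold above the control in both treated libraries under each, with log2 differences of 1.89 to 2.61 and 1.12 to 1.68 in the HKR3 library, and of 1.14 to 1.66 and 1.22 to 1.72 in the siTERT-labelled library. Since IL32 and UBD were picked for being higher, this shows only how their values move with the processing. ICAM1 stayed within 2-fold. TNFAIP2 passed it in the HKR3 library in TPM, at 1.06, but was at 0.99 there with the same sum. In the siTERT-labelled library TNFAIP2 passed it with a pseudocount of 0.1, at 1.01. BIRC3 passed it in the HKR3 library with that pseudocount and, at 1.02, in TPM, but was at 0.77 with the same sum.

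Counts over all genes moved by more than 1.5 times as follows. With a pseudocount of 0.1, 488 genes were lower in the HKR3 library than in the control, 103 higher and 57 lower in the siTERT-labelled library, and 323 lower in the HKR3 library than in the siTERT-labelled library. With a pseudocount of 5 the higher and lower genes of these comparisons were 238 and 93, 10 and 3, and 169 and 34. Without the filter 37 genes were lower in the siTERT-labelled library, and with a mean of at least 5 FPKM 17 were higher and 5 lower there. TPM gave 991 higher genes in the HKR3 library, 47 in the siTERT-labelled library and 701 in the direct comparison, whose median moved by 0.11. With the same sum 165 genes were lower in the HKR3 library than in the control and 98 lower than in the siTERT-labelled library.

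No paired analysis was possible because each group holds 1 library, which also leaves no replicate to omit. Depth limits LCN2, TRAF1 and CD83, and the absence of replicates limits every difference.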
